A study of Mus musculus with 6 samples.

Results

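Cholesterol and fatty acid metabolism was followed through 28 genes, found by gene symbol among the 49315 genes of the count table. They were chosen as a named list, with earlier results of these data known. They were divided into 13 genes of sterol synthesis and its control, 8 of fatty acid synthesis and its control, and 7 of lipid uptake, storage, remodelling and efflux. Lungs of C57BL/6 mice, the substrain C57BL/6J by the study's methods, given sterile saline (sham) or Bleomycin sulfate (BLM) by oropharyngeal instillation were dissociated at day 21, and RNA was sequenced from unsorted cells and from cells sorted as positive (Lamp1-enriched) or negative (Lamp1-depleted) for Lamp1 on their surface. The mice were male, and each tube pooled 2 to 3 lungs of 1 group. The age of the animals and the dose behind each library are not given in the sources used here. There was 1 library for each of the 6 conditions, so the comparisons below are between libraries, without a test and without a measure of the spread between mice.

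Cholesterol is built from acetyl-CoA through mevalonate, isoprenoids and squalene to lanosterol, which is then trimmed to cholesterol. The transcription factor Srebp2 turns on these enzymes when sterols run low, and Srebp1 turns on fatty acid synthesis. Insig1 holds both in the endoplasmic reticulum when sterols are plentiful. Liver X receptors sense oxysterols and drive cholesterol export by the transporters Abca1 and Abcg1. In lung, alveolar type 2 cells make fatty acids for surfactant phospholipid, macrophages take surfactant lipid up and store or export it, and capillary endothelium displays lipoprotein lipase.

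The promoters are shown because the sterol genes shared a short sequence in them that the choice of genes did not use. RefSeq windows of build GRCm38.p6, from 250 bases before to 50 bases after a start site, were found for 21 of the 28 genes, and 10 of the 13 sterol genes were among them. Both strands were searched for the CCAAT box, the binding site of NF-Y, a known partner of Srebp proteins. It was found in 10 of 10 sterol genes, 4 of 6 fatty acid genes and 2 of 5 lipid handling genes, against 41.1% of the 27025 genes with a window. A classical sterol regulatory element, searched as TCACNCCAC, was found in 1 of the 10 sterol genes, Hmgcs1, and in 1.44% of all genes. A liver X receptor element, searched as 2 copies of AGGTCA in the same direction with any 4 bases between them, was found in none of the 21 genes and in 0.0148% of all genes. That search allowed no mismatch and matched only 4 genes in all. Its lack of a match therefore cannot tell whether these promoters hold such an element, and Abcg1 and Lpl had no window. All of these are searches for letters and not measured binding sites. The match nearest upstream of the start site is given for each sterol gene, read 5′ to 3′ on the gene's strand, with CCAAT or its reverse complement ATTGG in capitals. In the first line the capitals mark the sterol regulatory element.
Hmgcs1, 137 bases upstream, chr13:119690204-119690232, plus strand: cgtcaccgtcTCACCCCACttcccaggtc
Hmgcs1, 45 bases upstream, chr13:119690294-119690322, plus strand: tccccgcctctcATTGGctgaaagcggat
Mvk, 14 bases upstream, chr5:114444243-114444271, plus strand: tccagctctctgATTGGcctcaggaagac
Mvd, 27 bases upstream, chr8:122443433-122443461, minus strand: ccggccagcgggCCAATcatatggcagcg
Idi1, 14 bases upstream, chr13:8885580-8885608, plus strand: gtccaaggtgccATTGGctggcgaccgac
Lss, 62 bases upstream, chr10:76531531-76531559, plus strand: ggtgatgctctgATTGGccgagctcgcat
Cyp51, 29 bases upstream, chr5:4104710-4104738, minus strand: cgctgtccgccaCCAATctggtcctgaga
Dhcr7, 49 bases upstream, chr7:143830153-143830181, plus strand: aatccacttccgATTGGtcgtctgtgacc
Sc5d, 24 bases upstream, chr9:42264308-42264336, minus strand: cgccggctgctgATTGGccggctgcctgc
Srebf2, 135 bases upstream, chr15:82147122-82147150, plus strand: cttcgcgcgccgATTGGctaatgcaagcc
Insig1, 216 bases upstream, chr5:28071184-28071212, plus strand: cgccctcctcccATTGGctccggcggcct
The number of matches per gene ran from 1 to 5, and Mvk had the 5. Dhcr7 had 3 windows and the other sterol genes 1 each.

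Counted reads per library ranged from 30236120 to 52918696. The BLM Lamp1-depleted library stood apart, with the fewest reads and 38.4% of them on the noncoding gene Gm26917, against at most 7.10% in the others. Levels are given as CPM, the reads of a gene per 1000000 reads of the library after TMM scaling, which gave this library a factor of 0.699 and the others 0.993 to 1.19. For Lamp1 itself the log2 ratio of the enriched over the depleted fraction was 1.75 in sham and 1.77 in BLM. Over unsorted cells it was 0.62 for the enriched and -1.13 for the depleted fraction in sham. In BLM these ratios were -0.41 and -2.18, so that Lamp1 was higher in BLM unsorted cells than in either fraction. Each of the 28 genes had at least 47 reads in every library, so all passed the minimum of 10 reads in the higher library of a comparison. A gene was called higher or lower at an absolute log2 ratio of at least 1 (2-fold). Intervals in brackets are 95% Clopper-Pearson intervals, which cover counting error only.

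Marker lists showed which cells each library held. Endothelial markers summed to 17447 CPM in BLM Lamp1-enriched and 19399 CPM in sham Lamp1-enriched cells, against 1150 and 2306 CPM in the Lamp1-depleted cells of the same treatments. B cell markers summed to 2655 CPM in sham and 1099 CPM in BLM Lamp1-depleted cells and to less in the other 4 libraries, down to 55.3 CPM. T cell markers reached 408 CPM and NK cell markers 126 CPM in sham Lamp1-depleted cells. Neutrophil markers were highest in BLM Lamp1-depleted cells, at 320 CPM, and platelet markers in sham Lamp1-enriched cells, at 907 CPM. Alveolar type 2 markers summed to 1572 CPM in sham and 329 CPM in BLM unsorted cells, and fibroblast markers to 834 and 955 CPM. Every listed marker had reads in every library except Fabp1, an alveolar macrophage marker, which was at 0 in both BLM sorted fractions. The RNA came from many cells at once, so that fewer cells of a type and less RNA per cell cannot be told apart.

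Across the 6 libraries, 21 of the 28 genes had their highest level in BLM unsorted cells and none their lowest there. By group these were 11 of 13 sterol genes, 5 of 8 fatty acid genes and 5 of 7 lipid handling genes. The summed level of the sterol genes was 331 CPM in sham and 748 CPM in BLM unsorted cells, and lay between 353 and 472 CPM in the sorted libraries. For the lipid handling genes the sum was 763 CPM in sham and 3654 CPM in BLM unsorted cells, and 566 to 1147 CPM in the sorted libraries. The fatty acid genes summed to 924 and 1127 CPM in unsorted cells and were highest in sham Lamp1-depleted cells, at 2084 CPM, through Scd1 at 1548 CPM.

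**Figure D1:**
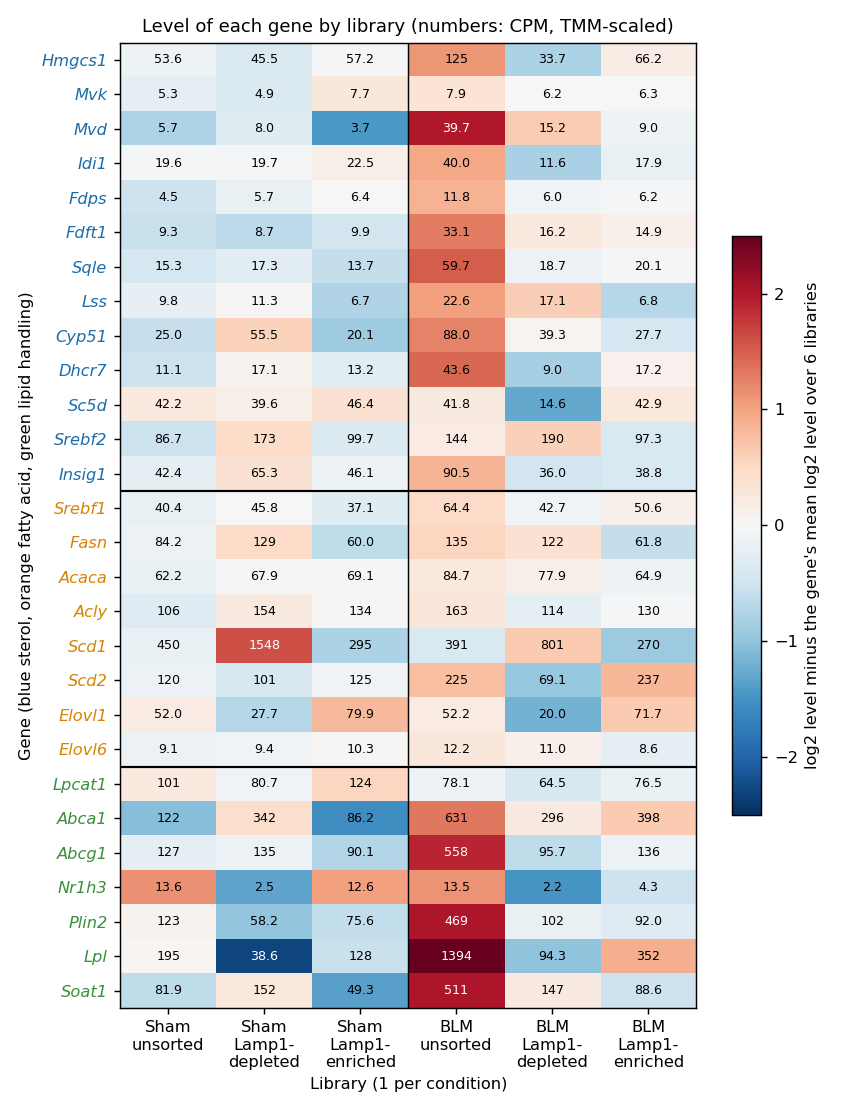
Heat map of the 28 genes (rows) in the 6 libraries (columns), coloured by the log2 level minus the gene's mean log2 level over the libraries, with the CPM printed in each cell. The BLM unsorted column holds the highest value of 21 genes, from 7.93 CPM for Mvk to 1394 CPM for Lpl.

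Compared per kilobase of merged exon, the genes covered a wide range within 1 library. In sham unsorted cells Scd1, the main stearoyl-CoA desaturase of many mouse tissues, was highest at 92.0 CPM per kilobase, followed by the lipid droplet coat gene Plin2 at 35.0. Lss, which closes the sterol ring, was lowest at 0.905 and Fdps, which makes farnesyl diphosphate, next at 1.07. In BLM unsorted cells Plin2 and the lipoprotein lipase gene Lpl both stood at 133 CPM per kilobase, above Scd1 at 79.9. This order depends on the merged exon length, which was 10478 bases for Lpl, 10787 for Lss and 3512 for Plin2. Before division by length Lpl had 1394 CPM and Plin2 469 CPM in BLM unsorted cells. Read sharing limits some of these levels. More than 5% of the 50-base words of the transcripts also occurred in transcripts of other genes for 4 genes, namely Acaca (30.4%), Fdps (26.2%), Idi1 (17.7%) and Fdft1 (9.38%). Scd1 and Scd2, neighbours on chromosome 19, shared 4.56% and 3.97% of theirs with other genes.

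Sterol synthesis genes were higher in BLM than in sham unsorted cells. Of the 13 genes, 10 were called higher and 0 lower, with a median log2 ratio of 1.22, while 13.9% of the 22772 genes tested were called higher, 16.0% lower, and their median was -0.07. The genes were chosen with earlier results of these data known, which the share over all genes does not account for. Of 16 further sterol genes 3 were called higher. The 3 of the 13 that did not reach the limit were Mvk, Srebf2 and Sc5d. Along the pathway, the mevalonate segment held the largest and one of the smaller ratios. Hmgcs1, which condenses acetoacetyl-CoA and acetyl-CoA, had 53.6 CPM in sham and 125 CPM in BLM unsorted cells, a log2 ratio of 1.22 (1.15 to 1.29). Its level in the 4 sorted libraries was 33.7 to 66.2 CPM, so that BLM unsorted cells lay above all others. Mvk, the mevalonate kinase, had 5.31 and 7.93 CPM and a log2 ratio of 0.58 (0.34 to 0.82).

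Mvd, which decarboxylates mevalonate diphosphate (GRCm38, chr8:122433601-122443422), had the largest ratio of the group. Its level was 5.75 CPM in sham unsorted, 7.98 in sham Lamp1-depleted, 3.67 in sham Lamp1-enriched, 39.7 in BLM unsorted, 15.2 in BLM Lamp1-depleted and 9.04 CPM in BLM Lamp1-enriched cells. Each BLM library was above the sham library of the same population, and the log2 ratio in unsorted cells was 2.79 (2.61 to 2.98), a 6.90-fold difference. For the isoprenoid step genes the log2 ratio was 1.03 (0.91 to 1.15) for Idi1, the isomerase, and 1.38 (1.15 to 1.62) for Fdps. Idi1 fell below the 2-fold limit when the factors were computed without the BLM Lamp1-depleted library.

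From squalene onward the ratios were of similar size for several enzymes. Fdft1, the squalene synthase, had 9.33 CPM in sham and 33.1 CPM in BLM unsorted cells, and 8.71 to 16.2 CPM in the sorted libraries. Its log2 ratio was 1.82 (1.67 to 1.98). Of the Fdft1 exon bases, 18.3% overlap exons of Ctsb on the other strand, and Ctsb, the lysosomal cathepsin B gene, had 141 CPM in sham and 1226 CPM in BLM unsorted cells. The strand setting of the counting is not given in the sources used here, and the part of the overlap in the Fdft1 ratio was not tested. Sqle, the squalene epoxidase and a rate-limiting enzyme, had 15.3 CPM in sham unsorted, 59.7 CPM in BLM unsorted and 13.7 to 20.1 CPM in the sorted libraries. Its log2 ratio was 1.97 (1.85 to 2.09), and the sorted libraries stayed within a narrow band far below BLM unsorted cells.

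The late enzymes differed among themselves. Lss had a log2 ratio of 1.21 (1.05 to 1.38). Cyp51, the lanosterol demethylase, had 25.0 CPM in sham and 88.0 CPM in BLM unsorted cells, a log2 ratio of 1.82 (1.72 to 1.91). In its case sham Lamp1-depleted cells were also high, at 55.5 CPM. Dhcr7, which makes cholesterol from its last precursor, had 11.1 and 43.6 CPM and a log2 ratio of 1.97 (1.83 to 2.11). Sc5d, the desaturase of the preceding step, had 42.2 CPM in sham and 41.8 CPM in BLM unsorted cells, a log2 ratio of -0.01 (-0.11 to 0.08). Of the controlling genes, Srebf2, which encodes Srebp2, had a log2 ratio of 0.74 (0.68 to 0.79), and Insig1 one of 1.09 (1.02 to 1.17).

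Fatty acid synthesis genes showed smaller ratios in unsorted cells. None of the 8 passed the 2-fold limit in either direction. Their median log2 ratio was 0.53, 7 were above 0 and 1 below. Scd2, a stearoyl-CoA desaturase, had the largest, 0.90 (0.86 to 0.95), with 120 CPM in sham and 225 CPM in BLM. Fasn, the fatty acid synthase, was at 84.2 and 135 CPM with a log2 ratio of 0.68 (0.62 to 0.74). Srebf1, which encodes Srebp1, stood at 0.67 (0.59 to 0.76) and Acly, which makes cytosolic acetyl-CoA for both pathways, at 0.62 (0.57 to 0.67). The log2 ratio was 0.44 (0.37 to 0.52) for Acaca, acetyl-CoA carboxylase, and 0.43 (0.24 to 0.62) for Elovl6, an elongase. Elovl1, which elongates very long chains, was at 0.01 (-0.08 to 0.09). Scd1 was the gene below 0, at -0.20 (-0.23 to -0.17), with 450 CPM in sham and 391 CPM in BLM.

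Lipid handling genes had the largest median of the groups and, in Lpl, the largest single ratio. The sterol gene Mvd, at 2.79, came next after Lpl. Of the 7 lipid handling genes, 5 were called higher in BLM unsorted cells and 0 lower, with a median log2 ratio of 2.14. Lpl (GRCm38, chr8:68880491-68907448), which hydrolyses lipoprotein triglyceride, had 195 CPM in sham unsorted, 38.6 in sham Lamp1-depleted, 128 in sham Lamp1-enriched, 1394 in BLM unsorted, 94.3 in BLM Lamp1-depleted and 352 CPM in BLM Lamp1-enriched cells. Its log2 ratio in unsorted cells was 2.84 (2.81 to 2.87), a 7.16-fold difference, and the BLM library was the higher in each population. Soat1, which esterifies cholesterol for storage, had 81.9 CPM in sham unsorted, 152 in sham Lamp1-depleted, 49.3 in sham Lamp1-enriched, 511 in BLM unsorted, 147 in BLM Lamp1-depleted and 88.6 CPM in BLM Lamp1-enriched cells. Its log2 ratio in unsorted cells was 2.64 (2.59 to 2.69), while the Lamp1-depleted libraries were level.

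The exporters followed in size. Abca1 (GRCm38, chr4:53030787-53159895), which loads cholesterol onto apolipoprotein A-I, had 122 CPM in sham and 631 CPM in BLM unsorted cells and a log2 ratio of 2.37 (2.33 to 2.41). Abcg1, which exports cholesterol to mature HDL, had 127 and 558 CPM and a log2 ratio of 2.14 (2.10 to 2.18). Plin2 was at 123 and 469 CPM, a log2 ratio of 1.93 (1.89 to 1.97). The remaining genes of this group were not among those called. Nr1h3, the liver X receptor alpha gene, had 13.6 and 13.5 CPM and a log2 ratio of -0.01 (-0.18 to 0.15). Lpcat1, which makes the dipalmitoyl phosphatidylcholine of surfactant, had 101 and 78.1 CPM and a log2 ratio of -0.38 (-0.44 to -0.31).

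Several marker lists moved with these ratios. In unsorted cells 6 of 8 alveolar macrophage markers were called higher in BLM and 2 lower, and their summed level was 507 CPM in sham and 2994 CPM in BLM. Of 8 monocyte and interstitial macrophage markers 7 were called higher, with sums of 122 and 731 CPM. Of 6 scar-associated macrophage markers 5 were called higher, with sums of 280 and 4812 CPM. All 5 proliferation markers were called higher, with sums of 30.8 and 186 CPM. In the same comparison 5 of 10 endothelial and 6 of 8 alveolar type 2 markers were called lower. So were all 5 platelet, 4 of 5 NK cell and 3 of 5 B cell markers. Of 8 fibroblast markers 3 were called higher and 4 lower. Of 5 neutrophil markers 1 was called higher and 0 lower, and of 6 T cell markers 0 were called. The part of these cell types in the lipid gene ratios was not tested.

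**Figure D2:**
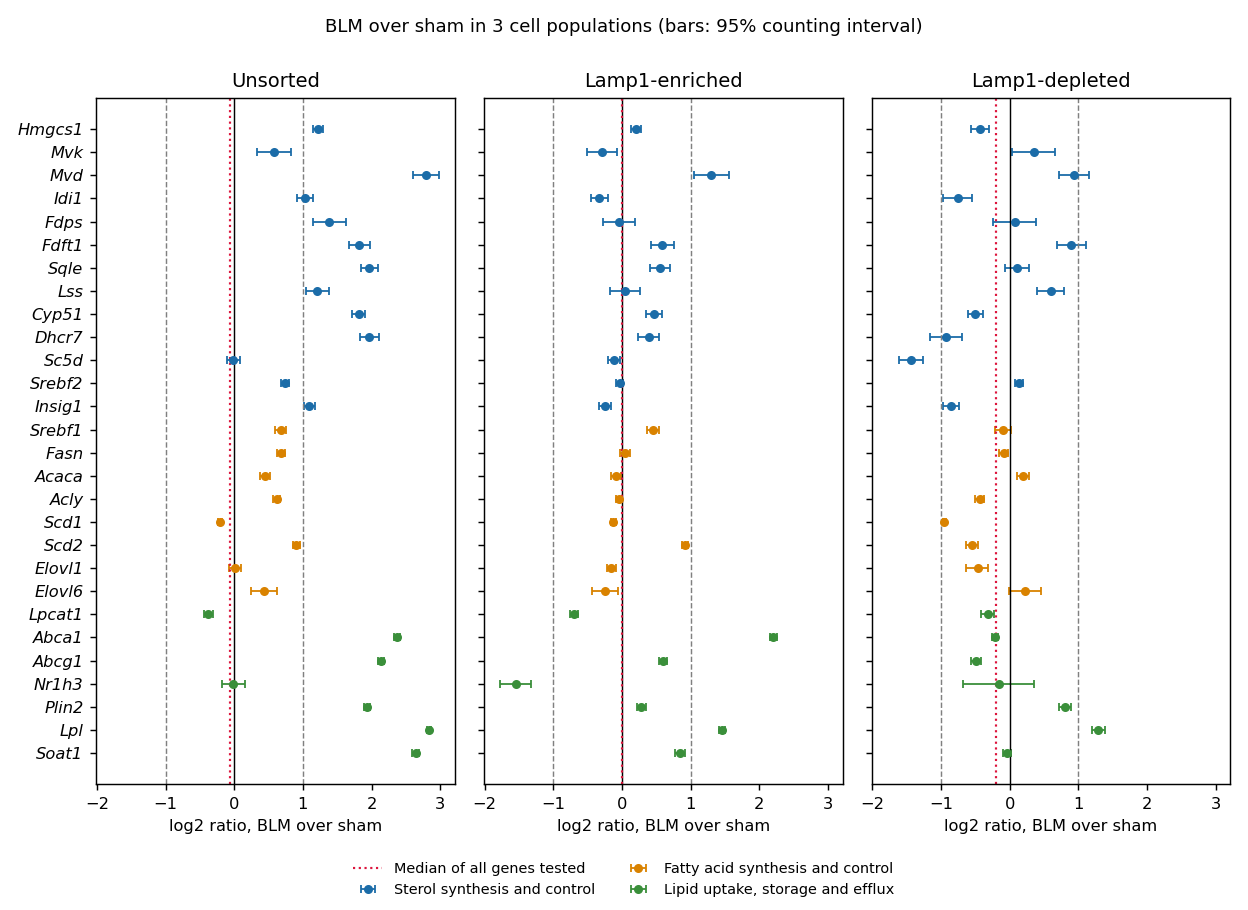
Log2 ratio of BLM over sham (x axis) for each gene (y axis) in unsorted, Lamp1-enriched and Lamp1-depleted cells, with 95% counting intervals as bars, dashed lines at 2-fold and a dotted line at the median of all genes tested. In unsorted cells 15 of the 28 genes lie beyond 2-fold on the higher side, against 3 in Lamp1-enriched and 1 in Lamp1-depleted cells.

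The scaling touched this comparison. Using total counts only shifted every log2 ratio of unsorted cells by -0.26. The members called higher were then 11 and not 15, since Hmgcs1, Idi1, Lss and Insig1 fell under 2-fold, and 32.4% of the calls over all genes were on the higher side, against 46.6% with TMM.

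Other genes of the same pathways were taken from lists written beside the 28. In unsorted cells 13.9% of all genes tested were called higher in BLM and 16.0% lower. Of 16 further sterol genes 3 were called higher and 0 lower, with a median log2 ratio of 0.56. The 3 were Hsd17b7 at 1.55, Nsdhl at 1.5 and Msmo1 at 1.36, enzymes that act in the removal of methyl groups from sterols. Of 19 further fatty acid and glycerolipid genes 3 were called higher and 0 lower, with a median of 0.24. These were Dgat2 at 1.99 and Dgat1 at 1.35, which make triglyceride, and Lpin1, a phosphatidate phosphatase, at 1.27. The sterol and fatty acid lists thus held a share of higher calls near that over all genes. Of 24 further uptake, storage and efflux genes 9 were called higher and 2 lower. The largest were Msr1, a macrophage scavenger receptor, at 4.87, the fatty acid binding gene Fabp5 at 3.71 and the fatty acid transporter gene Slc27a1 at 3.43. The 2 lower ones were the lipoprotein receptor gene Vldlr at -1.53 and Gpihbp1, which anchors lipoprotein lipase on capillary endothelium, at -1.30.

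Unsorted cells were next compared with the fractions of the same treatment, since a level above both fractions cannot be had by mixing those 2 libraries in any proportion. In sham 0 of the 28 genes were called in Lamp1-enriched over unsorted cells, against 2.63% of genes higher and 15.9% lower, and in Lamp1-depleted over unsorted cells 4 were called higher and 3 lower, against 18.3% and 30.4%. In BLM 0 were called higher and 14 lower in Lamp1-enriched over unsorted cells, against 12.6% and 19.1%, and in Lamp1-depleted over unsorted cells 1 higher and 17 lower, against 16.8% and 33.6%. The lower calls thus stood mostly in BLM. In BLM 12 of the 28 genes were at least 2-fold higher in unsorted cells than in each fraction, and none lower than both. Over all 22801 genes 8.42% were above both and 2.28% below both. In sham 0 of the 28 genes were above or below both, against 7.23% and 1.14% of 23233 genes. The 12 genes were the sterol genes Mvd, Idi1, Fdft1, Sqle, Cyp51, Dhcr7 and Insig1 and the lipid handling genes Abcg1, Nr1h3, Plin2, Lpl and Soat1. No fatty acid synthesis gene was among them.

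In BLM, Plin2 had 469 CPM in unsorted, 102 in Lamp1-depleted and 92.0 CPM in Lamp1-enriched cells, 4.62-fold over the higher fraction. Abcg1 had 558, 95.7 and 136 CPM in the same order, 4.10-fold over the higher fraction. The fold over the higher fraction was 3.96 for Lpl, 3.47 for Soat1 and 3.12 for Nr1h3. Among sterol genes it ran from 2.04 for Fdft1 to 2.97 for Sqle. Abca1, at 631 CPM in unsorted and 398 CPM in Lamp1-enriched cells, was 1.59-fold over the higher fraction and was not counted. Hmgcs1, at 1.89-fold, and Fdps, at 1.91-fold, were just under the limit.

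**Figure D3:**
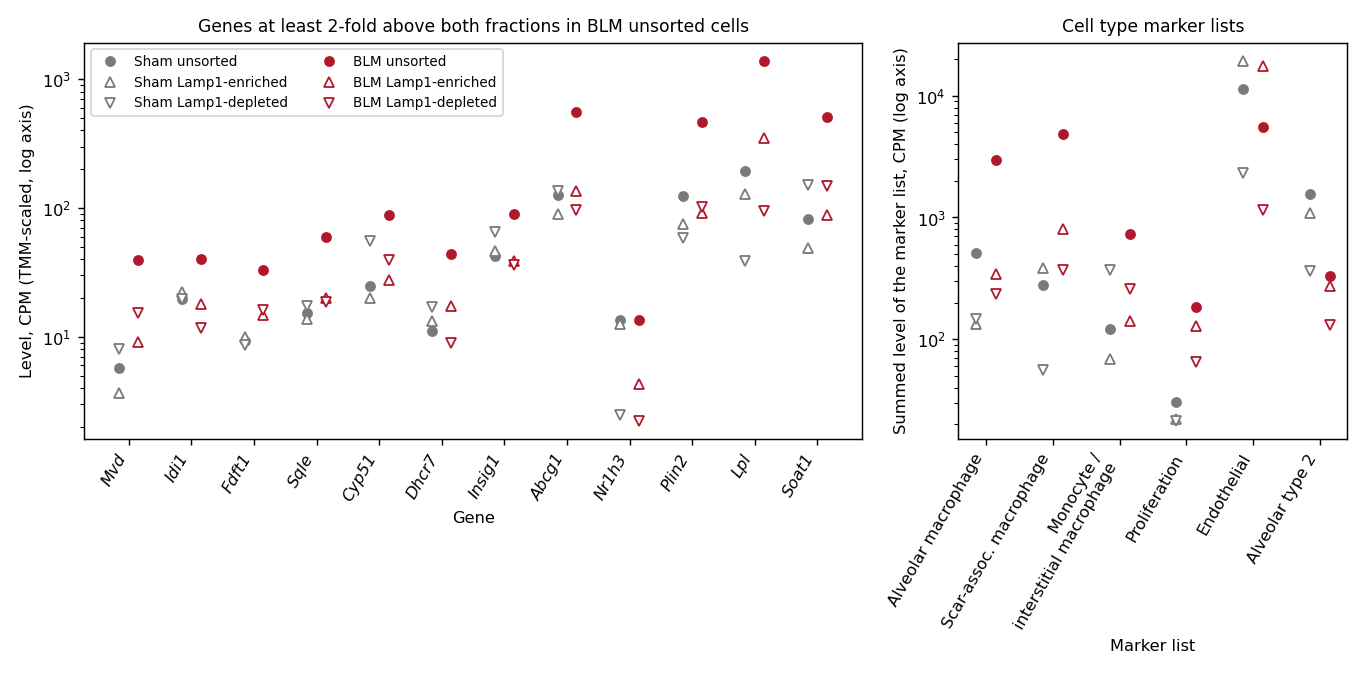
Left, level in CPM (log axis) of the 12 genes at least 2-fold above both fractions in BLM unsorted cells, in all 6 libraries. Right, summed CPM (log axis) of 6 marker lists. Filled circles are unsorted cells and open triangles the sorted fractions, grey for sham and red for BLM. The alveolar macrophage list reaches 2994 CPM in BLM unsorted cells and at most 345 CPM in the sorted fractions.

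Macrophage and proliferation markers were also highest in BLM unsorted cells. In BLM the alveolar macrophage list summed to 2994 CPM in unsorted, 236 CPM in Lamp1-depleted and 345 CPM in Lamp1-enriched cells. The scar-associated list summed to 4812, 372 and 799 CPM in the same order, and the monocyte and interstitial list to 731, 260 and 141 CPM. The proliferation list summed to 186, 65.7 and 128 CPM. Of the further uptake, storage and efflux genes 8 of 24 were above both fractions in BLM, namely Cidec, Fabp4, Fabp5, Msr1, Nceh1, Olr1, Pparg and Slc27a1. In sham 4 of 24 were, namely Cidec, Fabp4, Fabp5 and Olr1. Of the further sterol genes 1 of 16 was, Msmo1, and of the further fatty acid genes 2 of 19, Dgat2 and Lpin1, while in sham 0 were. Over all genes 8.42% were above both fractions in BLM and 7.23% in sham. The part of macrophages or of the sorting itself in these differences was not tested.

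Between the sorted fractions the 3 groups did not move as blocks. In sham 3 of the 28 genes were called higher in the enriched than in the depleted fraction and 6 lower, while 27.5% of 21867 genes were called higher and 25.2% lower. In BLM 4 were called higher and 2 lower, against 34.3% and 22.6% of 21838 genes. The members called in either direction therefore made up a smaller share than among all genes. Median log2 ratios of the sterol, fatty acid and lipid handling genes were -0.34, -0.09 and 0.38 in sham and 0.05, -0.03 and 0.43 in BLM, beside -0.01 and 0.29 for all genes tested. All BLM values of this comparison rest on the BLM Lamp1-depleted library.

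Among fatty acid genes, 2 desaturases and an elongase separated. Scd1 (GRCm38, chr19:44394455-44407879) had 450 CPM in sham unsorted, 1548 in sham Lamp1-depleted, 295 in sham Lamp1-enriched, 391 in BLM unsorted, 801 in BLM Lamp1-depleted and 270 CPM in BLM Lamp1-enriched cells. Both Lamp1-depleted libraries were above the other 4. The log2 ratio of Lamp1-enriched over Lamp1-depleted cells was -2.39 (-2.42 to -2.37) in sham and -1.57 (-1.60 to -1.54) in BLM. The B cell list had its highest sums in the same 2 libraries, 2655 and 1099 CPM. So had the T cell list, 408 and 333 CPM, and the NK cell list, 126 and 43.5 CPM. Neutrophil markers were highest in BLM Lamp1-depleted cells, at 320 CPM. Monocyte and interstitial macrophage markers summed to 373 CPM in sham Lamp1-depleted cells, below the 731 CPM of BLM unsorted cells. The genes of that list differed. Ly6c2 (73.7 and 19.0 CPM) and Cx3cr1 (60.8 and 33.2 CPM) had their highest levels in sham and BLM Lamp1-depleted cells. Ccr2 was highest in sham Lamp1-depleted cells, at 115 CPM, and next in BLM unsorted cells, at 107 CPM. Csf1r, C1qa, C1qb, C1qc and Ms4a7 were highest in BLM unsorted cells. The part of these lists in the Scd1 level was not tested.

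Scd2 (GRCm38, chr19:44293674-44306864) had another order. It had 120 CPM in sham unsorted, 101 in sham Lamp1-depleted, 125 in sham Lamp1-enriched, 225 in BLM unsorted, 69.1 in BLM Lamp1-depleted and 237 CPM in BLM Lamp1-enriched cells. Its sorting ratio was 0.31 (0.25 to 0.36) in sham and 1.78 (1.70 to 1.86) in BLM, the difference coming from a higher enriched and a lower depleted library in BLM. Elovl1 was higher in Lamp1-enriched cells by 1.53 (1.43 to 1.62) in sham and 1.84 (1.69 to 1.99) in BLM. Fasn was lower by a log2 ratio of -1.11 (-1.17 to -1.04) in sham and -0.98 (-1.05 to -0.91) in BLM. Srebf1, Acaca, Acly and Elovl6 had log2 ratios between -0.35 and 0.24 in both treatments.

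Lipid handling genes ran from -1.99 to 2.34 in sham and from -0.73 to 1.90 in BLM. Lpl was higher in Lamp1-enriched cells, with log2 ratios of 1.73 (1.65 to 1.81) in sham and 1.90 (1.83 to 1.97) in BLM. Nr1h3 had 2.48 CPM in Lamp1-depleted and 12.6 CPM in Lamp1-enriched sham cells, a log2 ratio of 2.34 (2.06 to 2.65). In BLM it had 2.22 and 4.31 CPM and a log2 ratio of 0.95 (0.50 to 1.44), from 47 reads in the lower library. Soat1 was lower in Lamp1-enriched cells, at -1.62 (-1.69 to -1.55) in sham and -0.73 (-0.80 to -0.67) in BLM. Plin2 and Lpcat1 lay between -0.14 and 0.62 in both treatments.

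Abca1 changed its side. In sham it had 342 CPM in Lamp1-depleted and 86.2 CPM in Lamp1-enriched cells, a log2 ratio of -1.99 (-2.04 to -1.94). In BLM it had 296 and 398 CPM, a log2 ratio of 0.43 (0.39 to 0.47), beside a median of 0.29 for all genes tested. Most of that difference lay in the Lamp1-enriched libraries. The Lamp1-depleted ones differed by -0.21 (-0.25 to -0.17), beside a median of -0.20 for all genes tested. Abcg1 likewise had a log2 ratio of -0.58 (-0.64 to -0.52) in sham and 0.51 (0.44 to 0.58) in BLM.

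Sterol genes ran from -1.46 to 0.66 in sham and from -1.32 to 1.55 in BLM. Cyp51, at -1.46 (-1.57 to -1.36), and Mvd, at -1.12 (-1.39 to -0.85), were lower in Lamp1-enriched sham cells. In BLM they were at -0.50 (-0.63 to -0.38) and -0.75 (-0.96 to -0.55). Lss was called lower in BLM, at -1.32 (-1.54 to -1.11), and Sc5d higher, at 1.55 (1.38 to 1.73). Srebf2 was on the lower side in both, at -0.80 (-0.85 to -0.75) and -0.97 (-1.03 to -0.91). Insig1 was at -0.50 (-0.58 to -0.42) in sham and 0.11 (-0.01 to 0.23) in BLM. With total counts only the BLM ratios shifted by 0.56 and 9 of the 28 genes were called higher and 1 lower, and 74.7% of the calls over all genes were on the higher side, against 60.3% with TMM.

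**Figure D4:**
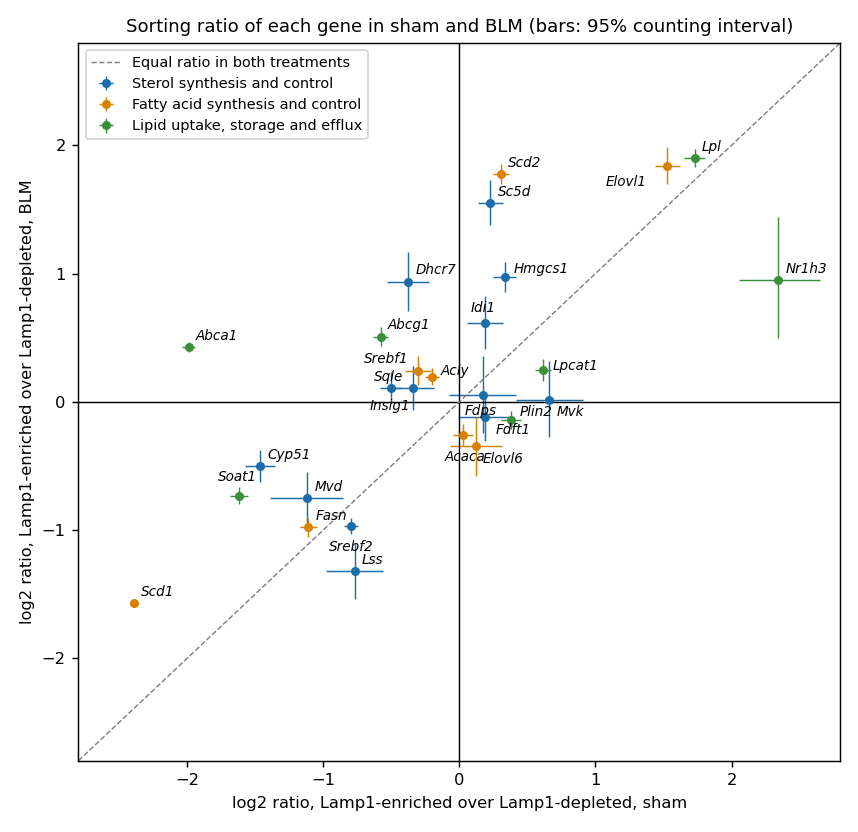
Log2 ratio of Lamp1-enriched over Lamp1-depleted cells in sham (x axis) and BLM (y axis), 1 point per gene, coloured by group, with 95% counting intervals as bars and a dashed line where both ratios are equal. Abca1 lies far above the line, at -1.99 in sham and 0.43 in BLM, and Nr1h3 below it, at 2.34 and 0.95.

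The further genes of the pathways were compared between the fractions as well. Among all genes tested 27.5% were called higher and 25.2% lower in sham, and 34.3% and 22.6% in BLM. Of 24 further uptake, storage and efflux genes 10 were called higher and 3 lower in sham, and 13 higher and 0 lower in BLM. Gpihbp1 had log2 ratios of 3.81 in sham and 3.75 in BLM, and the fatty acid receptor gene Cd36 had 3.32 and 4.60. In sham the phospholipid transfer protein gene Pltp was at 3.06, and in BLM the HDL receptor gene Scarb1 was at 3.37. The 3 lower ones in sham were Pparg at -2.12, Msr1 at -2.02 and Slc27a1 at -1.47. Of 19 further fatty acid genes 6 were called higher and 3 lower in sham and 11 and 3 in BLM. Acacb, the mitochondrial acetyl-CoA carboxylase, was at 2.87 and 2.92, and Fads1, a desaturase of polyunsaturated fatty acids, at 2.54 and 2.47. Me1, malic enzyme, was at 3.03 in sham, and Fads2 at 3.41 in BLM. The 3 lower ones were the same in both treatments, Dgat1 at -1.92 and -2.33, Dgat2 at -1.10 and -1.44 and the acetyl-CoA synthetase gene Acss2 at -1.12 and -1.27. Of 16 further sterol genes 2 were called higher and 1 lower in sham and 7 and 1 in BLM. Stard4, which encodes a sterol carrier, was at 1.39 and 2.22. Pmvk, the phosphomevalonate kinase, was the gene called lower, at -1.21 in sham and -1.55 in BLM, and Mbtps2, which cleaves Srebp precursors, was at 1.56 in BLM. All 10 endothelial and all 5 platelet markers were called higher in the enriched fraction of either treatment. Of 8 alveolar type 2 markers 7 were called higher and 1 lower in either treatment. Of 8 fibroblast markers 8 were called higher in sham and 7 in BLM. For the 5 proliferation markers these counts were 2 and 3, and for the 6 scar-associated macrophage markers 3 and 2. On the lower side in both treatments were all 6 T cell, all 5 B cell and all 5 NK cell markers. The part of these lists in the ratios of the pathway genes was not tested.

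Within the sorted fractions fewer of the 28 genes were called between BLM and sham than in unsorted cells. In Lamp1-enriched cells 3 of the 28 genes were called higher in BLM and 1 lower, against 10.2% and 7.86% of 21671 genes. Abca1 had a log2 ratio of 2.21 (2.16 to 2.26), close to its 2.37 in unsorted cells. Lpl was at 1.46 (1.42 to 1.5) and Mvd at 1.30 (1.05 to 1.56). Nr1h3 was lower, with 12.6 CPM in sham and 4.31 CPM in BLM, a log2 ratio of -1.55 (-1.78 to -1.33). Next below the limit came Scd2 at 0.92 (0.87 to 0.96), Soat1 at 0.84 (0.77 to 0.92) and, on the lower side, Lpcat1 at -0.69 (-0.75 to -0.64). Medians were 0.04 for sterol, -0.07 for fatty acid and 0.59 for lipid handling genes.

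The sterol ratio of BLM over sham was smaller in Lamp1-enriched than in unsorted cells for each of the 13 genes, by 1 log2 unit or more for 10 of them. The median of that difference was -1.34. Idi1 and Insig1, called higher in unsorted cells, had log2 ratios of -0.33 (-0.46 to -0.20) and -0.25 (-0.34 to -0.16) in Lamp1-enriched cells. For the fatty acid genes the median difference was -0.38, with 0 of 8 past 1 log2 unit, and for the lipid handling genes it was -1.54, with 5 of 7. In Lamp1-enriched cells 4 of 7 alveolar macrophage markers tested were called higher and 1 lower in BLM, with sums of 133 CPM in sham and 345 CPM in BLM. Of 6 scar-associated macrophage markers 5 were called higher, with sums of 385 and 799 CPM, and all 5 proliferation markers, with sums of 22.1 and 128 CPM. Of the scar-associated sums Cd9, the marker not called, held 316 CPM in sham and 191 CPM in BLM. Of 8 monocyte and interstitial macrophage markers 4 were called higher and 1 lower, of 8 fibroblast markers 3 higher and 2 lower, and of 5 neutrophil markers 2 higher and 0 lower. On the lower side were all 5 platelet markers, with sums of 907 CPM in sham and 129 CPM in BLM, and 6 of 8 alveolar type 2 markers, with sums of 1080 and 276 CPM. Of the lymphocyte lists 4 of 5 NK cell, 3 of 5 B cell and 2 of 6 T cell markers were called lower, and of the 10 endothelial markers 0 were called. The part of these lists in the ratios was not tested. Of the further genes 0 sterol and 0 fatty acid genes were called, while 8 of 24 uptake, storage and efflux genes were called higher and 2 lower. Among all genes tested 10.2% were called higher and 7.86% lower. Msr1 at 3.52, Olr1, the oxidised lipoprotein receptor gene, at 2.48 and Fabp5 at 2.02 were the largest, and the lower ones were the lipid droplet genes Hilpda at -1.35 and Cidec at -1.06. Among the further sterol and fatty acid genes farthest from 0 were Stard4 at 0.68, Tm7sf2 at 0.65, Dgat2 at 0.90, Elovl7 at -0.89 and Acss2 at -0.73.

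In Lamp1-depleted cells 1 of the 28 genes was called higher in BLM and 1 lower, against 13.7% and 22.3% of 20852 genes. Lpl was the higher one, at 1.29 (1.2 to 1.38), and Sc5d the lower one, with 39.6 CPM in sham and 14.6 CPM in BLM, a log2 ratio of -1.44 (-1.62 to -1.26). Mvd at 0.93 (0.71 to 1.15), Fdft1 at 0.89 (0.68 to 1.11) and Plin2 at 0.80 (0.72 to 0.89) came next on the higher side. On the lower side Scd1 was at -0.95 (-0.98 to -0.93), Dhcr7 at -0.93 (-1.16 to -0.70) and Insig1 at -0.86 (-0.98 to -0.75). The median of all genes tested was itself -0.20. With total counts only every ratio shifted by -0.72, so that 0 members were called higher and 12 lower, and 12.7% of the calls over all genes were on the higher side, against 38.1% with TMM. These values also rest on the BLM Lamp1-depleted library. Of the further genes 6 of 16 sterol genes were called lower and 0 higher, led by Ggps1 at -1.19, Lbr at -1.18 and Insig2 at -1.17. Of 19 fatty acid genes 1 was called higher, Dgat2 at 1.24, and 4 lower, namely Acsl3 at -1.25, Fads2 at -1.19, Elovl7 at -1.04 and Elovl5 at -1.01. Of 24 uptake, storage and efflux genes 4 were called higher, namely Fabp5 at 2.40, Olr1 at 1.76, Msr1 at 1.16 and Slc27a3 at 1.09, and 3 lower, namely Cd36 at -1.46, Vldlr at -1.11 and Hilpda at -1.07. In Lamp1-depleted cells 5 of 5 neutrophil markers were called higher in BLM, with sums of 45.0 CPM in sham and 320 CPM in BLM, and 5 of 6 scar-associated macrophage markers, with sums of 56.0 and 372 CPM. Of 5 proliferation markers 3 were called higher and 0 lower, of 8 alveolar macrophage markers 2 higher and 3 lower, of 8 monocyte and interstitial macrophage markers 3 higher and 1 lower, and of 8 fibroblast markers 3 higher and 4 lower. Called lower were 3 of 5 B cell markers, with sums of 2655 and 1099 CPM, 6 of 8 alveolar type 2 markers, with sums of 362 and 131 CPM, and 4 of 5 NK cell markers, with sums of 126 and 43.5 CPM. So were 3 of 10 endothelial, 2 of 6 T cell and 2 of 5 platelet markers. Of the alveolar type 2 sums Napsa held 181 CPM in sham and 67.4 CPM in BLM. Napsa, alone in that list, was higher in Lamp1-depleted than in Lamp1-enriched cells of both treatments. The part of these lists in the ratios was not tested.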

How the data were processed

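The authors deposited whole-number counts for each gene, not normalized, made from paired reads of 150 bases of polyA RNA. The submitters' processing notes name Trimmomatic 0.36, STAR 2.5.2b, featureCounts, Subread 1.5.2, DESeq2 and GRCm38, and the annotation and strand setting are not given in the sources used here. Samples were grouped by their labels, 1 library per condition. TMM factors were computed with edgeR 4.0.16 and alternative size factors with DESeq2 1.42.0 under R 4.3.3. Log2 ratios used Python 3.11.15, numpy 2.4.6, scipy 1.17.1 and pandas 2.3.3, a prior count of 0.5 reads, and left out genes whose higher library had fewer than 10 reads. Counted reads were 30236120 to 52918696 per library, and intervals cover counting error only. Intervals of a difference of 2 ratios use 1.96 standard errors of the counts. The treatments were not used as replicates of each other, and no p-value was computed. Exon lengths and positions came from GENCODE M21, which is on the same build. Siglecf was matched by identifier through that annotation. All 28 members are named. Of 60 other pathway genes, the 3 farthest from 0 in each list and comparison with at least 50 reads are named; calls of 5 or fewer are named beyond this, after their values were seen. The values of 1 further sterol gene are not reported here. Members and lists were chosen with earlier results of these data known. Marker lists hold 79 genes. The programs were tested on simulated data. Alternatives were other scalings, thinned counts, a prior count of 2, a minimum of 1 or of 50 reads, and calls from a log2 ratio of 2.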

Additional observations from a re-analysis of the deposited data

Results flagged for a closer look

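Some genes had log2 ratios of opposite sign in the 2 treatments or in 2 cell populations. Both ratios lay beyond counting error, which does not cover the scaling, and differed by at least 1 log2 unit. These differences were not tested, because each condition had 1 library. Those of Abca1, Dhcr7, Abcg1 and Scd2 involve the BLM Lamp1-depleted library, and those of Idi1 and Insig1 do not. For Abca1 the log2 ratio of Lamp1-enriched over Lamp1-depleted cells was 0.43 in BLM and -1.99 in sham, a difference of 2.42 (2.35 to 2.48). The same 4 values, read as BLM over sham, give 2.21 in Lamp1-enriched and -0.21 in Lamp1-depleted cells, again 2.42 apart. For Dhcr7 the sorting ratio was 0.94 in BLM and -0.38 in sham, 1.31 apart (1.04 to 1.59), and BLM over sham was 0.39 and -0.93 in the 2 fractions. For Abcg1 it was 0.51 in BLM and -0.58 in sham, 1.09 apart, and BLM over sham was 0.59 and -0.49. The 0.51 of Abcg1 was at percentile 54.9 of all genes tested. For Scd2 BLM over sham was 0.92 in Lamp1-enriched and -0.55 in Lamp1-depleted cells, 1.47 apart (1.37 to 1.57). For Idi1 BLM over sham was -0.33 in Lamp1-enriched and 1.03 in unsorted cells, a difference of -1.36 (-1.53 to -1.19). For Insig1 it was -0.25 and 1.09, a difference of -1.34 (-1.46 to -1.23).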

How the results depend on the processing

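Of the 106 alternative counts of members called, 89 stayed within 1.5 times the count reported and 17 moved. Of 924 alternative log2 ratios of single genes 760 stayed within their counting interval and 164 moved, and 0 called ratios changed sign. Total counts only moved 105 of these ratios and left 35, and DESeq2 size factors moved 33 and left 107. All members passed the minimums of 1 and of 50 reads, which only filter genes. Those settings therefore could move no count and no ratio, and gave 140 of the unmoved ratios each. A log2 ratio of at least 2 left 5 members higher in BLM unsorted cells, 1 higher and 0 lower in BLM Lamp1-enriched cells, 0 and 0 in BLM Lamp1-depleted cells, 1 higher and 1 lower in Lamp1-enriched over Lamp1-depleted cells in sham and 0 and 0 in BLM, and 2 above both fractions in BLM. Total counts only gave 9 higher and 1 lower in Lamp1-enriched over Lamp1-depleted cells in BLM, and 0 higher and 12 lower for BLM over sham in Lamp1-depleted cells, where they shift all log2 ratios by 0.56 and -0.72. DESeq2 size factors shift them by -0.15 and 0.15 and gave 4 lower in the first comparison, adding Srebf2 and Fasn, and 3 higher in the second, adding Mvd and Fdft1. Counts thinned to the smallest total gave 4 lower in the first comparison. A prior count of 2 and the other read minimums changed no count. No paired analysis was possible because each condition had 1 library and the labels give no replicate numbers. Depth was least for Nr1h3 in BLM Lamp1-depleted cells.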
